A study of Mus musculus with 12 samples.

Results

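High-dose and untreated cultures of C2C12, the mouse myoblast line of this series, were compared: 6 µM perfluorooctanesulfonate (PFOS) against 0 µM, both for 24 h. The comparison used 8 of the 12 samples of the series, 4 libraries at 6 µM and 4 at 0 µM, and all genes of the count table. The other 4 libraries, at 2 µM PFOS, entered the model and are given beside the results without a test of their own here, because they share the 0 µM libraries. Both groups are the same line, grown to 100% confluency before treatment, and the labels name no vehicle, genotype or differentiation step for either. Of 54532 genes in the table, 16038 had enough counts to be tested. Nothing in the labels ties the 4 libraries of each dose to 4 cultures. The p-values therefore rest on the spread between samples, which may be technical.

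PFOS is a fully fluorinated surfactant with a sulfonate head group that persists in the body and resembles a fatty acid in shape. Fatty acids and some compounds like them bind the peroxisome proliferator-activated receptors (PPARs), nuclear receptors that pair with RXR and switch on genes of fatty acid uptake, storage and oxidation. Myoblasts are the proliferating precursors of muscle fibres: they carry the regulator MyoD, and when they leave the cell cycle they express myogenin, fuse and build sarcomeres. Myoblast cultures also secrete fibrillar collagens and other matrix proteins, which take a large share of their messenger RNA.

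Levels are CPM (counts scaled to a common library size), the deposited read counts divided by a library size scaled by TMM, a method that assumes that most genes do not differ between libraries. A gene is called changed at a Benjamini-Hochberg adjusted p under 0.05 in edgeR's quasi-likelihood test, with no minimum size. Under this rule 735 genes rose and 587 fell at 6 µM, which is 4.58% and 3.66% of the tested genes and 8.24% together. At an unadjusted p under 0.05 there were 1732 and 1726. The balance of the directions depended on the scaling: with upper-quartile scaling in place of TMM 598 rose and 662 fell, although the median of all tested genes moved by -0.01 on the log2 scale. The median log2 fold change of all tested genes was -0.02, and the median called gene rose 1.17-fold or fell 1.29-fold. Of the genes that rose, 546 rose less than 1.25-fold and 21 rose 2-fold or more. Of those that fell, 246 fell less than 1.25-fold and 57 fell 2-fold or more. The CPM of the groups did not overlap for 628 of the genes that rose and 496 of those that fell, against 2012 (12.6%) of all genes tested.

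Total counts ranged from 30206155 to 45644739 at 0 µM and from 39794974 to 44669988 at 6 µM. The libraries of 0 µM replicate 1 and of 6 µM replicates 2 and 3 lay farthest from the mean of their dose, and without these 3 libraries 408 genes rose and 302 fell. Fewer genes had any count at 6 µM (19292 to 20110) than at 0 µM (20470 to 21040), and TMM factors were 0.984 to 0.992 against 1.01 to 1.02. Of 12 myoblast markers 10 (the list holds Myod1, Des and Cdh15) were above 1 CPM on average, with a summed level of 818 to 936 CPM at 0 µM and 796 to 854 CPM at 6 µM. Fibroblast markers, type I and III collagens among them, summed to 12020 to 14530 CPM and 11240 to 11790 CPM, with Fap and Tcf21 at 0. Adipocyte markers summed to 48.7 to 53.5 and 58.5 to 62.9 CPM, with Adipoq, Retn and Pck1 at 0. Markers of endothelium (5.60 to 7.82 and 5.76 to 7.61 CPM), leukocytes (9.87 to 13.2 and 10.5 to 14.8 CPM), epithelium (22.0 to 29.5 and 26.3 to 29.5 CPM) and nerve (16.5 to 23.5 and 21.5 to 27.9 CPM) were low, with Emcn, Adgre1, Itgam, Cx3cr1, Cd3e, Krt8, Krt18, Cldn4, Sox10, Nefl and Nefm at 0. Bone and cartilage markers summed to 186.9 to 193.6 and 181.3 to 193.5 CPM, with 1 called higher (Sox9) and 1 lower (Mgp). In these bulk libraries fewer cells of a type and less RNA per cell cannot be told apart.

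The response was tilted by abundance. Abundant genes were called higher more often than lower, and scarce genes the reverse. Among the 90 genes with a mean of at least 1000 CPM over the 12 libraries, 25 rose (27.8%) and 6 fell (6.67%). Among 2235 genes from 100 to below 1000 CPM, 352 rose (15.7%) and 91 fell (4.07%). From 10 to below 100 CPM the directions were close, with 309 of 7061 genes higher and 339 lower. From 1 to below 10 CPM 46 of 3228 genes rose and 119 fell, and below 1 CPM 3 of 3424 rose and 32 fell. The median log2 fold change went the same way, from -0.25 below 1 CPM and -0.11 from 1 to below 10 CPM to 0.05 from 100 CPM and 0.07 from 1000 CPM.

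The tilt kept its direction under the other settings that bear on it. At 100 CPM or more 377 genes rose and 97 fell, which became 300 and 127 with upper-quartile scaling and 222 and 57 without the 3 deviating libraries. Below 10 CPM 49 rose and 151 fell, which became 44 and 157, and 26 and 70. Within protein-coding genes alone, 45 rose and 101 fell below 10 CPM. The lower number of genes with counts and the lower TMM factors at 6 µM, given above, move with this tilt, and their part in it was not tested. CPM is not corrected for transcript length, so these classes group genes by their share of the reads.

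**Figure D1:**
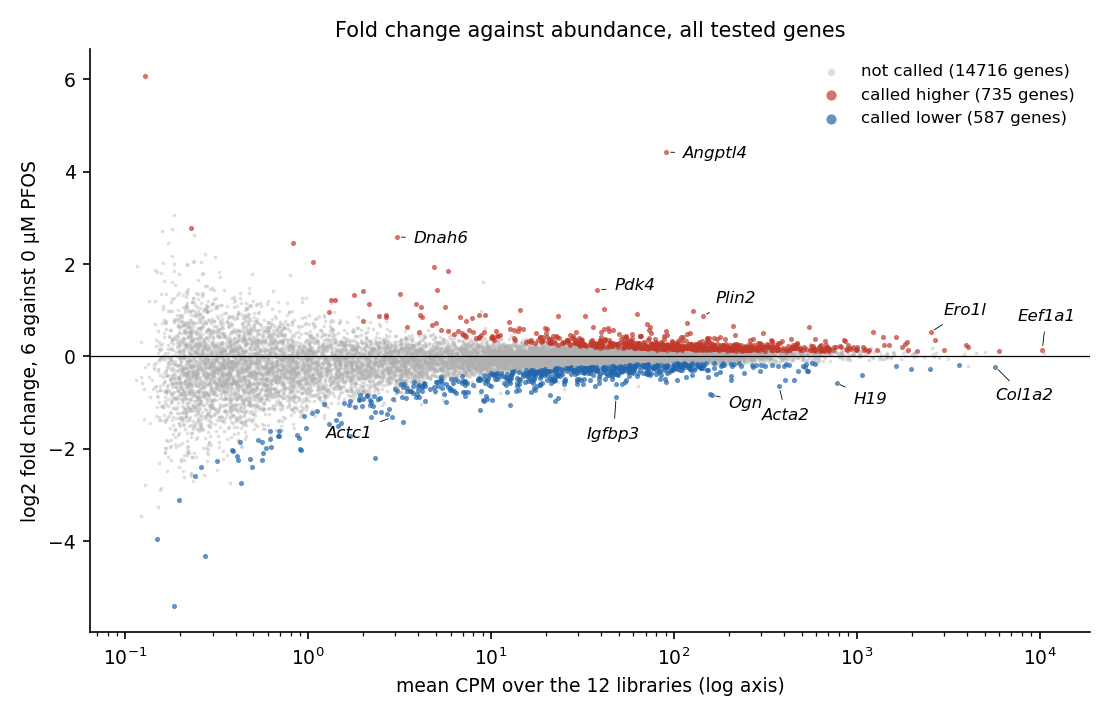
Log2 fold change at 6 against 0 µM PFOS (vertical axis) for each of the 16038 tested genes against its mean CPM over the 12 libraries (horizontal log axis). Points are genes, red where called higher (735), blue where called lower (587) and grey where not called. The red points gather to the right, where small changes pass the test, and the blue points extend far to the left. A few red genes such as Angptl4 stand apart from the rest.

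**Figure D2:**
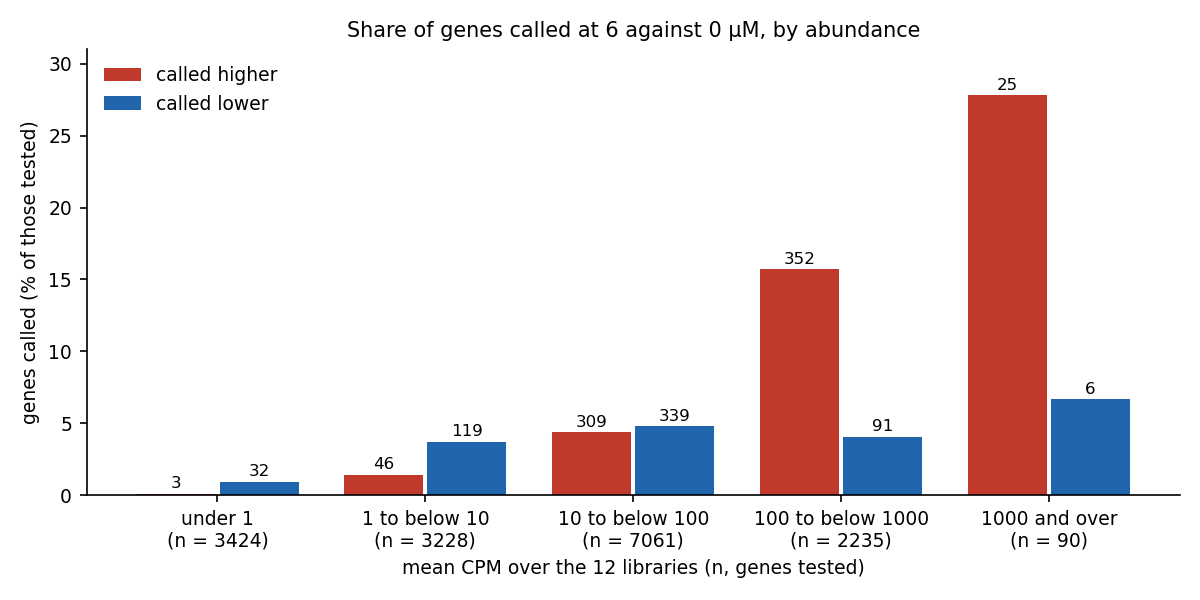
Share of tested genes called higher (red) or lower (blue) at 6 against 0 µM in 5 classes of mean CPM over the 12 libraries, with the number of called genes over each bar. The higher calls climb from 3 of 3424 genes below 1 CPM to 25 of 90 at 1000 CPM or more, where 6 fell.

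Summed over genes, small changes of abundant genes outweighed the large folds. The 735 genes that rose summed to 15.86% to 16.25% of the TMM-scaled library size at 0 µM, to 17.45% to 17.93% at 2 µM and to 18.34% to 18.98% at 6 µM. The 587 genes that fell went from 5.404% to 5.545% at 0 µM to 4.489% to 4.547% at 6 µM. The 25 risers at 1000 CPM or more alone went from 5.35 ± 0.110% to 6.22 ± 0.166%, and the 6 fallers of that class from 1.769 ± 0.0748% to 1.504 ± 0.0222% (mean ± SD, n = 4). By comparison the 21 genes that rose 2-fold or more held 0.00950 ± 0.000450% at 0 µM and 0.0410 ± 0.00147% at 6 µM. These genes were chosen by the same test, so the sums describe its calls and add no evidence.

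Of the 100 most abundant genes, 28 rose and 6 fell. The risers include genes of translation, protein folding, glycolysis and lipid desaturation, and all 6 fallers (Col1a2, Col3a1, Col12a1, Sparc, Thbs1 and Igfbp5) encode secreted proteins, most of them of the matrix. Eef1a1, which encodes the elongation factor that brings aminoacyl-tRNA to the ribosome, was at 9824, 10061, 9989 and 9613 CPM in the 4 libraries at 0 µM and at 10869, 10754, 11379 and 10706 CPM at 6 µM. Every 6 µM library was above every 0 µM library, and the rise of 1.11-fold was called (log2 fold change 0.15, SE 0.0252, adjusted p = 0.000676, edgeR's quasi-likelihood test). With it rose Eef2, the translocation factor, from 5816 ± 277 to 6334 ± 137 CPM (1.09-fold), and Pabpc1, which binds poly(A) tails, from 1642 ± 47.8 to 1899 ± 38.3 CPM (1.16-fold). The Eef2 call ended without 6 µM replicate 1 (adjusted p = 0.0559 by edgeR) and without the 3 deviating libraries (0.0517). The ribosomal protein gene Rpl7a, outside the 100 most abundant, rose from 399 to 625 CPM. However, its libraries overlapped (329 to 534 CPM at 0 µM, 464 to 739 at 6 µM), and without 0 µM replicate 3 its adjusted p was 0.0534 by edgeR.

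Abundant chaperone genes rose as well. Hsp90ab1, the constitutive cytosolic HSP90, was at 3756, 3836, 3729 and 3941 CPM at 0 µM and at 4410.2, 4249, 4538 and 4408 CPM at 6 µM, with no overlap and a rise of 1.15-fold (adjusted p = 8.67e-05, edgeR). Hspa9, the HSP70 of the mitochondrial matrix, was at 1737, 1592, 1656 and 1566 CPM against 2026, 1999, 2099.6 and 2029.5 CPM and rose 1.245-fold (adjusted p = 3.5e-06, edgeR). The largest fold among the called genes of the 100 most abundant was that of Ero1l, whose product helps form disulfide bonds in the endoplasmic reticulum. It was at 2069, 1949.8, 1938 and 2032 CPM without PFOS, at 2598 to 2921 CPM at 2 µM and at 2919.5, 2834, 2985 and 2801 CPM at 6 µM, so the 2 µM libraries already lay near the 6 µM level (log2 fold change 0.53, SE 0.0374, adjusted p = 2.95e-09 for 6 against 0 µM, edgeR). Ero1l is a protein-coding gene (ENSMUSG00000021831, chromosome 14 from 45283087 to 45318771 on the minus strand, GRCm38 as in the deposited coordinates).

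Metabolic genes were among the other risers with large CPM differences, and of those that follow Scd1 and Aldh1l2 lie outside the 100 most abundant genes. Scd2, a desaturase that introduces a double bond into stearate, rose 1.18-fold, from 3666 ± 214 to 4335 ± 274 CPM, and its highest 0 µM library (3968 CPM) lay just above its lowest 6 µM library (3937 CPM). Its paralog Scd1 rose 1.27-fold, from 780.2 ± 23.9 to 989 ± 39.0 CPM, with no overlap. Pgk1 of glycolysis rose 1.099-fold, from 2842 ± 85.8 to 3122 ± 109 CPM, and Aldh1l2, a mitochondrial folate enzyme, rose 1.28-fold, from 735 ± 58.0 to 938 ± 8.96 CPM. Lrp1, an endocytic receptor of the LDL receptor family, rose from 1358 to 1609 CPM with groups that overlapped. Hspg2, which encodes the basement membrane proteoglycan perlecan, rose from 1276 to 1514 CPM, but 0 µM replicate 4 was at 1561 CPM, above 3 of the 4 libraries at 6 µM. The Hspg2 call ended without 0 µM replicates 1, 2 or 3 (adjusted p = 0.0675, 0.0903 and 0.0733 by edgeR), without 6 µM replicates 1 or 4 (0.0626 and 0.0584), without the 3 deviating libraries (0.0906) and by DESeq2 (0.0685).

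For some risers by absolute CPM the source of the reads is uncertain. CT010467.1, annotated in the table as an 18S ribosomal RNA gene on chromosome 17, rose 1.28-fold, with 2199.6, 2361, 2544 and 1689.6 CPM at 0 µM and 3089.5, 2661, 2817 and 2719 CPM at 6 µM. Its adjusted p was 0.0509 by edgeR without 6 µM replicate 1 and 0.0557 without the 3 deviating libraries. Lars2, the mitochondrial leucyl-tRNA synthetase, rose 1.33-fold, with 1286, 1228, 1109 and 843 CPM against 1562, 1502, 1455 and 1442 CPM. CT010467.1 and Lars2 were lowest in the same 0 µM library, replicate 4. Gm26917, a lincRNA gene beside CT010467.1, rose 1.44-fold, from 1046 ± 147 to 1503 ± 69.9 CPM. Its lowest 0 µM library was replicate 1 (859 CPM), and its 0 µM replicate 4 was at 1160.4 CPM. Libraries were made from purified messenger RNA, and whether these genes share reads with ribosomal RNA was not tested.

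**Figure D3:**
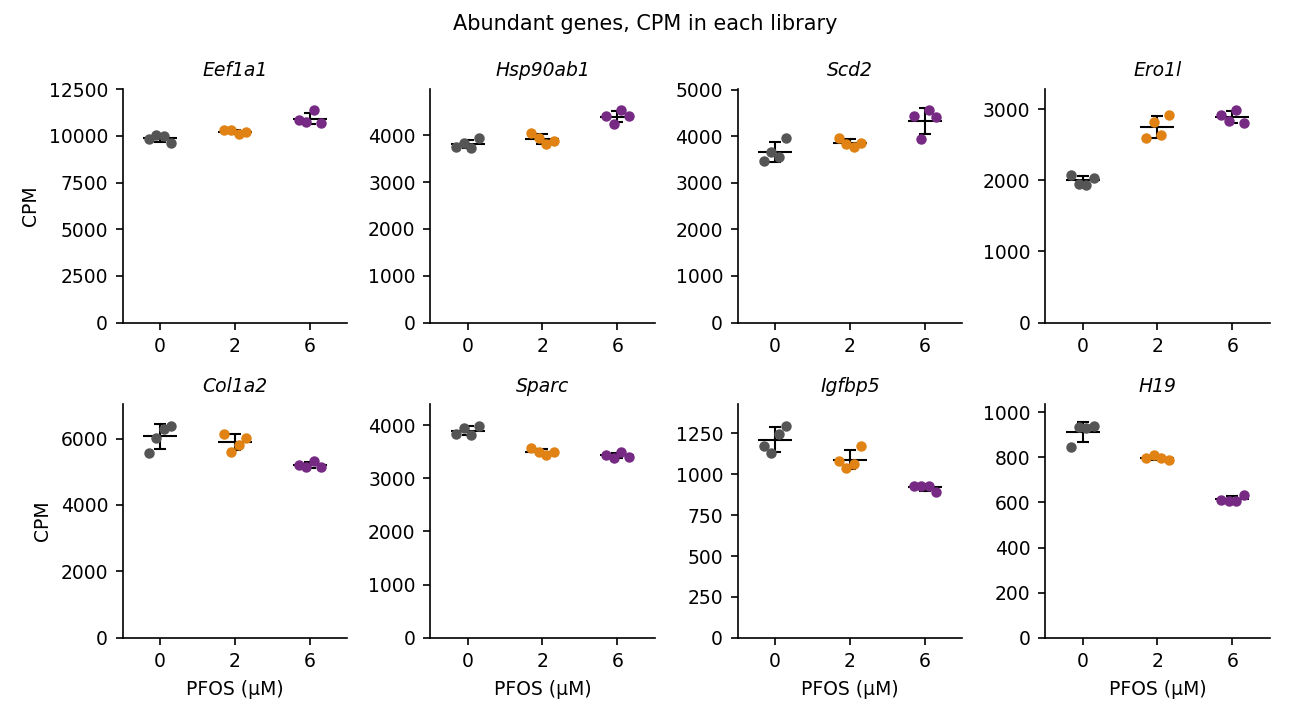
CPM of 8 abundant genes in each library at 0, 2 and 6 µM PFOS. Points are libraries (4 a dose), the horizontal dash is the mean and the bar is the SD. In the upper row (Eef1a1, Hsp90ab1, Scd2 and Ero1l) the 6 µM means lie above the 0 µM means, and in the lower row (Col1a2, Sparc, Igfbp5 and H19) below them, and Scd2 is the gene whose 0 and 6 µM libraries overlap.

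Collagen genes were prominent among the abundant genes that fell. Col1a2, an alpha chain of type I collagen, was at 5566, 6006, 6287 and 6390.5 CPM at 0 µM and at 5189.6, 5137, 5338 and 5135 CPM at 6 µM. All 6 µM libraries lay below all 0 µM libraries and closer to each other (log2 fold change -0.22, SE 0.0371, adjusted p = 0.000509, edgeR). Col3a1 fell 1.21-fold, with 2628 to 2927 CPM against 2261 to 2352 CPM, and Sparc, a collagen-binding matricellular protein, fell 1.14-fold, with 3818 to 3991 CPM against 3376 to 3499.7 CPM. Neither pair of ranges overlapped. The other chain of type I collagen, Col1a1, had a mean of 4332 ± 574 CPM and of 3779.7 ± 116 CPM and missed the threshold (adjusted p = 0.0527, edgeR). Its libraries were at 3628, 4302, 4364 and 5032 CPM at 0 µM and at 3777, 3625, 3903 and 3813 CPM at 6 µM. Replicate 1 at 0 µM lay among the 6 µM libraries, and without it the adjusted p was 0.00096 by edgeR. It was also called as lower without the 3 deviating libraries (0.0134), with upper-quartile scaling (0.0372), with no count filter (4.38e-05), with a mean count of at least 50 (0.0465) and with the length trend removed (0.0385). Col1a1 was singled out after its values were seen.

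Further matrix genes fell from a high level. Thbs1, the matricellular protein thrombospondin 1, fell 1.20-fold, from 2048 ± 123 to 1707 ± 34.2 CPM, although at 2 µM it was at 2120 to 2263 CPM, no lower than without PFOS. Igfbp5, a secreted binding protein of insulin-like growth factors, fell 1.32-fold: its libraries were at 1172, 1133, 1249 and 1298 CPM and at 927, 929.5, 930.1 and 891 CPM (log2 fold change -0.40, SE 0.0432, adjusted p = 2.9e-06, edgeR). Postn, or periostin, fell 1.41-fold, from 477 ± 26.1 to 337 ± 18.6 CPM, Col11a1 fell 1.247-fold, from 519 ± 21.2 to 416 ± 12.6 CPM, and Ogn, the small leucine-rich proteoglycan osteoglycin, fell 1.78-fold, from 199 ± 24.3 to 112 ± 21.7 CPM. Col12a1 fell from 1700.2 to 1483 CPM with overlapping groups, and without the 3 deviating libraries its adjusted p was 0.124 by edgeR. Oxct1, a ketone body enzyme, fell from 597 to 482 CPM, and Ddx17, an RNA helicase, fell from 567 to 482 CPM.

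Sorting by the evidence instead of by the size in reads brought other genes forward. Outside the few largest folds, the smallest adjusted p values among risers belonged to Cpt1a and Plin2, described with the lipid genes, and to Klf10, Aldh9a1, Ero1l and Ucp2. Klf10, a zinc finger transcription factor first known as a TGF-beta inducible gene, was at 27.1, 26.7, 29.8 and 27.3 CPM at 0 µM, 35.7 to 41.6 CPM at 2 µM and 60.7, 57.7, 55.7 and 53.7 CPM at 6 µM (log2 fold change 1.04, SE 0.0658, adjusted p = 6.12e-10, edgeR). Aldh9a1, an aldehyde dehydrogenase of carnitine synthesis, rose 1.65-fold, from 88.4 ± 2.64 to 146 ± 8.97 CPM. Ucp2, a carrier of the mitochondrial inner membrane, rose 1.88-fold, from 45.6 ± 5.31 to 85.7 ± 4.00 CPM.

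Among the genes that fell, the smallest adjusted p belonged to Acta2, the smooth muscle actin that myoblasts also make. Its libraries were at 435, 444, 461 and 448 CPM at 0 µM and at 290.3, 285, 293 and 273 CPM at 6 µM, 2 tight groups far apart (log2 fold change -0.65, SE 0.0381, adjusted p = 1.59e-10, edgeR). H19, an imprinted noncoding RNA (ENSMUSG00000000031, chromosome 7 from 142575529 to 142578143 on the minus strand, GRCm38), was at 848, 932, 931 and 941 CPM and at 611, 607, 607 and 632 CPM (log2 fold change -0.57, SE 0.0367, adjusted p = 6.71e-10, edgeR). Then came secreted signalling proteins: Igfbp3 fell 1.84-fold, from 63.9 ± 3.25 to 34.8 ± 1.94 CPM, and C1qtnf3, a C1q-like secreted protein, fell 1.51-fold, from 61.5 ± 1.84 to 40.8 ± 1.17 CPM. Sfrp2, a secreted modulator of Wnt signalling, fell 1.42-fold, from 235 ± 12.8 to 165 ± 5.99 CPM, and Ptn, the growth factor pleiotrophin, fell 1.86-fold, from 31.1 ± 2.48 to 16.7 ± 1.12 CPM. Tgfb3 and Bmp4, ligands of the TGF-beta superfamily, fell 1.40-fold and 1.40-fold, from 103 to 73.5 CPM and from 94.6 to 67.4 CPM. Peg3, an imprinted zinc finger gene, fell 1.34-fold, from 236 to 176 CPM. For Acta2, H19, Igfbp3, C1qtnf3, Sfrp2, Ptn, Tgfb3, Bmp4 and Peg3 the groups did not overlap.

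The classes that follow come from gene lists written from textbook knowledge with earlier results of these data known, and they share members. Each is described by how many of its tested members were called, to be read against the 4.58% higher and 3.66% lower among all tested genes, and by the median log2 fold change of its members, to be read against -0.02. Where a class is said below to have no member called in a direction, DESeq2 and limma-voom also called none, unless stated. At an unadjusted p under 0.05 in edgeR that direction held 2 translation factors and 1 gene each of fatty acid synthesis, glycolysis, iron and metals, and Krüppel-like factors, and none of the other such classes unless stated.

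PPAR target genes rose, several of them by large folds. Of the 28 tested PPAR targets 16 rose and none fell by edgeR's test, with a median of 0.24, and 12 rose without the 3 deviating libraries. The summed adipocyte markers given above were higher at 6 µM as well, with no overlap of the libraries. That list holds the receptor gene Pparg itself, and its 2 called members were Pparg and Fabp4 (from 5.80 to 7.99 CPM). The part of these markers in the PPAR target calls was not tested. Plin2, which coats lipid droplets, was at 103, 112, 106 and 98.2 CPM at 0 µM, 128 to 141 CPM at 2 µM and 195, 189, 194 and 194 CPM at 6 µM. The 6 µM libraries lay close together and far above the rest (log2 fold change 0.88, SE 0.0463, adjusted p = 2.3e-11, edgeR). Cpt1a, the gate for long-chain fatty acids into mitochondria, was at 82.2, 83.2, 86.4 and 92.4 CPM against 171, 159, 166 and 181 CPM. Pdk4, a kinase that shuts off pyruvate dehydrogenase, rose from 23.7 ± 0.892 to 63.9 ± 2.28 CPM. Of 14 lipid droplet genes 4 rose, Plin2, Plin4, Lipe and Hilpda, and 4 also did without the 3 deviating libraries. Hilpda, an inhibitor of droplet lipolysis, rose from 46.2 ± 4.46 to 61.9 ± 5.07 CPM and Plin4 from 10.1 ± 1.38 to 15.2 ± 1.499 CPM. The receptor gene Pparg itself, at a low level, rose from 16.01 ± 1.62 to 21.4 ± 1.26 CPM (1.33-fold).

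Oxidation enzymes did not move as one. Of 36 genes of fatty acid oxidation 9 rose and 3 fell, with a median of 0.07. Acadl, the long-chain acyl-CoA dehydrogenase, rose 1.42-fold, from 103 ± 5.32 to 146 ± 4.67 CPM, and Acaa2, a mitochondrial thiolase, rose 1.33-fold, from 132 ± 4.91 to 174 ± 8.68 CPM, while Acadsb and Echs1 were among those that fell. The count of risers was 5 without 0 µM replicate 3, 6 µM replicate 3 or 6 µM replicate 4, and 4 without the 3 deviating libraries. Among 17 acyl-CoA synthetase and thioesterase genes 5 rose and none fell, among them Acss2 (from 103 ± 5.80 to 131 ± 7.77 CPM), which makes acetyl-CoA from acetate, and Acot7 (from 110.2 ± 5.01 to 132 ± 5.39 CPM), a cytosolic thioesterase.

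Sterol and fatty acid synthesis rose by small steps and broadly. Of 27 genes of cholesterol synthesis, uptake and sensing 18 rose and none fell by edgeR's test, with a median of 0.21 and folds of 1.11 to 1.35. Without the 3 deviating libraries 13 rose. Sqle, squalene epoxidase, was at 290.0, 316, 316 and 326 CPM at 0 µM, 323 to 341 CPM at 2 µM and 391.7, 367, 397 and 406 CPM at 6 µM (log2 fold change 0.32, SE 0.0427, adjusted p = 3.31e-05, edgeR). Hmgcs1, which feeds the pathway, rose 1.15-fold, from 316 ± 8.22 to 364 ± 20.1 CPM, with a mean of 303 CPM at 2 µM, below that without PFOS. The 30 genes that build fatty acids and triglycerides included 15 that rose and none that fell, with a median of 0.15, and 9 rose without the 3 deviating libraries. Fasn, fatty acid synthase, was at 346, 388, 386 and 469 CPM and at 520.5, 478, 527 and 551 CPM: 0 µM replicate 4 was the highest of its group and still below all 6 µM libraries.

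The sterol genes are known targets of SREBP proteins, which bind sterol regulatory elements beside a CCAAT box. RefSeq promoters (GRCm38.p6, 250 bases before to 50 after the start site) were found for 10667 tested genes. The element TCACNCCAC, searched on both strands, was in 1 of the 19 cholesterol genes with a promoter (5.26%) and in 1.47% of all 10667 genes. The box CCAAT, on both strands, was in 16 of the 19 (84.2%) and in 43.2% of all. These letters and those given below were chosen after the values were seen, and a match is a description of the window and not of binding. The promoter with the sterol element is that of Hmgcs1 (chr13:119690101-119690400 on the plus strand), shown with the element in capitals.
Hmgcs1: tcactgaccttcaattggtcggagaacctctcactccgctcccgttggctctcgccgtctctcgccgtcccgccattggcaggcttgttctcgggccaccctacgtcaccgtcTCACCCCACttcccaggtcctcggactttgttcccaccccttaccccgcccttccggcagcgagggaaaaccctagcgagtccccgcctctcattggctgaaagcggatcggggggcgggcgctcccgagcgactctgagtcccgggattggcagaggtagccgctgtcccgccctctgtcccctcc

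Some genes of glycolysis and related pathways rose. Of 26 tested glycolysis genes 8 rose and none fell, with a median of 0.11, but the count was 4 without 0 µM replicate 1, 6 µM replicate 1 or 6 µM replicate 3, 5 without 0 µM replicate 3, and 3 without the 3 deviating libraries. Slc16a1, the lactate and pyruvate carrier, rose 1.21-fold, from 230.0 ± 7.80 to 278 ± 4.26 CPM, and Slc2a1, the glucose transporter GLUT1, rose 1.19-fold, from 402 ± 25.1 to 479 ± 29.1 CPM. Of 8 pentose phosphate genes 2 rose, the NADPH-producing enzymes G6pdx (from 132 ± 3.13 to 152 ± 5.14 CPM) and Pgd (from 118 ± 4.17 to 142 ± 2.95 CPM), and the same count held without the 3 deviating libraries. Among 30 genes of the citric acid cycle and pyruvate dehydrogenase, Pdk4 alone rose and Pdp1, the phosphatase that opposes it, alone fell (from 38.9 ± 1.09 to 30.4 ± 3.36 CPM). Without 6 µM replicate 2 there were 2 risers, and without 0 µM replicates 1 or 4 there were 2 fallers. Of 31 hypoxia response genes 11 rose and none fell, with a median of 0.14 (8 without the 3 deviating libraries), among them Ero1l, Pgk1, Slc2a1 and Hilpda.

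**Figure D4:**
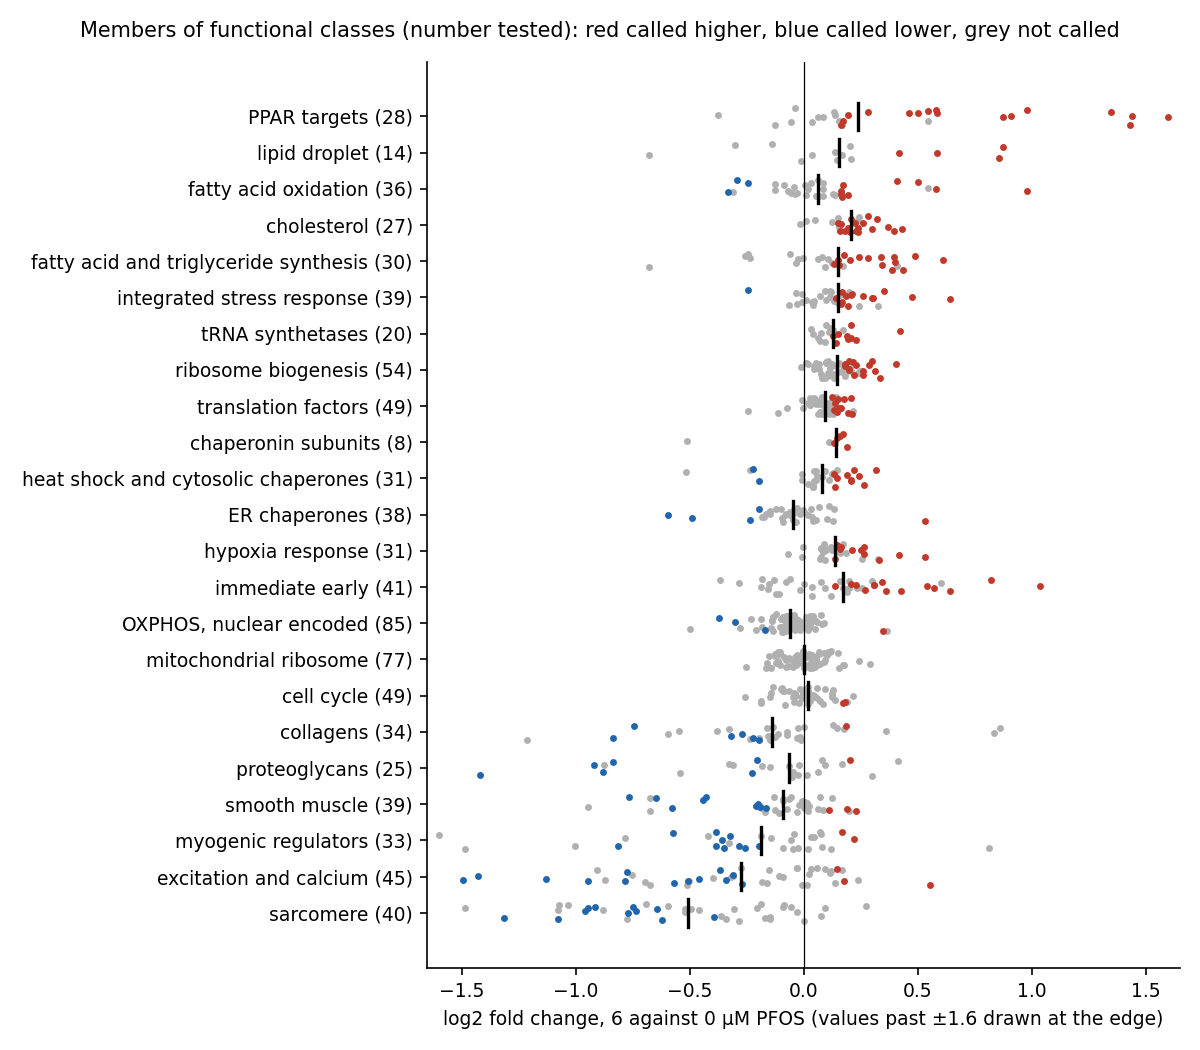
Log2 fold change at 6 against 0 µM (horizontal axis) of the tested members of 23 gene classes, 1 row a class with the number tested. Each point is a gene, red where called higher, blue where called lower and grey where not called, the black tick is the median, and 2 points past 1.6 in either direction are drawn at the edge. Lipid, sterol and translation classes lie right of 0 by small amounts, mitochondrial ribosome and cell cycle genes sit on 0, and the muscle classes spread to the left.

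Part of the genes that make ribosomes and charge tRNAs rose, and few genes of ribosomal proteins did by edgeR. Of 54 ribosome biogenesis genes 15 rose and none fell, with a median of 0.15, and 10 rose without the 3 deviating libraries. Mybbp1a, a nucleolar protein that binds Myb, rose 1.26-fold, with 296 to 314 CPM at 0 µM against 378 to 397 CPM at 6 µM, and Ncl, nucleolin, rose 1.15-fold, from 762.2 ± 46.4 to 876 ± 34.5 CPM. Npm1, nucleophosmin, rose from 990.2 to 1138 CPM with overlapping groups, and without 0 µM replicate 3 its adjusted p was 0.0576 by edgeR. Of 49 translation factors 11 rose and none fell, and 6 rose without 6 µM replicate 1 and without the 3 deviating libraries. Of the 82 cytosolic ribosomal protein genes 4 rose and none fell, with a median of 0.05, or 4.88% against 4.58% of all genes. With the length trend removed 12 of them rose (920 of all genes), and DESeq2 and limma-voom called 6 each. The 4 became 8 without 0 µM replicate 2, 2 without 0 µM replicate 4 and 1 without 0 µM replicate 3, 6 µM replicate 1 or 6 µM replicate 3. Reads of these genes can be split with their many pseudogenes.

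Of 20 cytosolic tRNA synthetase genes 9 rose and none fell, with a median of 0.13, and 6 rose without the 3 deviating libraries. Gars, glycyl-tRNA synthetase, was at 699.9, 705, 709 and 649 CPM at 0 µM and at 787, 794, 829 and 784 CPM at 6 µM, with no overlap and 0 µM replicate 4 the lowest of its group. Many of these genes, like those of amino acid and folate synthesis, belong to the integrated stress response, in which phosphorylated eIF2α raises translation of the transcription factor ATF4. Of 39 genes of that response 14 rose and 1 fell, with a median of 0.15, and 8 rose and 1 fell without the 3 deviating libraries (2 fell without 0 µM replicate 1). Atf4 itself rose 1.12-fold, from 923 ± 42.8 to 1039 ± 28.2 CPM, and Asns, asparagine synthetase, rose 1.12-fold, from 539.6 ± 19.6 to 606 ± 26.9 CPM. Both calls ended without the 3 deviating libraries (adjusted p = 0.0863 and 0.175 by edgeR). The member that fell was Chac1, which degrades glutathione, with 165, 178, 183 and 177 CPM at 0 µM, 162 to 175 CPM at 2 µM and 149, 138, 159.9 and 146 CPM at 6 µM (log2 fold change -0.24, SE 0.0482, adjusted p = 0.00230, edgeR). In these 3 genes the means at 2 µM were 1028, 598 and 170.2 CPM.

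ATF4 and its partners of the C/EBP family bind composite elements that begin with TGATG. The letters TGATGNAA, searched on both strands, were in 10 of the 34 stress response genes with a RefSeq promoter (29.4%), in 5 of 12 tRNA synthetase genes (41.7%) and in 2.76% of all 10667 genes. The promoters of Asns (chr6:7693160-7693459 on the minus strand), Gars (chr6:55037751-55038050 on the plus strand) and Chac1 (chr2:119350992-119351291 on the plus strand) are shown with the match in capitals, since all 3 hold it while Asns and Gars rose and Chac1 fell. In Gars and Chac1 the match is on the opposite strand.
Asns: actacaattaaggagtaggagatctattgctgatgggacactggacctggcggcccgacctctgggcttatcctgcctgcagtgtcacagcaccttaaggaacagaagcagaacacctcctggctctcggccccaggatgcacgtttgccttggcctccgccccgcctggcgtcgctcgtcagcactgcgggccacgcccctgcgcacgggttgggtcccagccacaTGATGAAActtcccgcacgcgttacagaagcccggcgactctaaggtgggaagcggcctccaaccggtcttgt
Gars: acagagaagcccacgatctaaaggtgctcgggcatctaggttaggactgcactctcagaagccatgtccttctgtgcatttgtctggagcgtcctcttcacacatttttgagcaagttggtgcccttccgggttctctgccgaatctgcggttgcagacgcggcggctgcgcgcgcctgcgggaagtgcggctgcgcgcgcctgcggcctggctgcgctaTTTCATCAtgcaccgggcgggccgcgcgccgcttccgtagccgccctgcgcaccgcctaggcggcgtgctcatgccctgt
Chac1: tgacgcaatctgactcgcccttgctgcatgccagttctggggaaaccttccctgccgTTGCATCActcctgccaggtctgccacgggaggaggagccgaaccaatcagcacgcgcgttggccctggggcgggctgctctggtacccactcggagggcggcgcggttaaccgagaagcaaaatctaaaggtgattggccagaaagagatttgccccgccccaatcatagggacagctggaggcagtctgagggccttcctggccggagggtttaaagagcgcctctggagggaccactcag

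Several cytosolic and mitochondrial chaperone genes rose, and of those of the endoplasmic reticulum more fell than rose. Of 31 heat shock genes 10 rose and 2 fell, with a median of 0.08, and of 8 chaperonin genes 5 rose. The 10 became 5 without 0 µM replicate 3, 6 without 6 µM replicate 4 and 8 without the 3 deviating libraries, and the 2 that fell, Dnajb4 and Cryab, became 0 without 0 µM replicate 2 or 6 µM replicate 1 and 1 without 0 µM replicate 3 or 6 µM replicates 2 or 3. Without the 3 deviating libraries none of them was called. The 5 chaperonin calls became 3 without 6 µM replicate 3 and without the 3 deviating libraries. Hsp90aa1, the inducible HSP90, rose 1.15-fold, from 711 ± 36.4 to 820.3 ± 41.8 CPM, Cct4 rose 1.14-fold, from 415 ± 16.6 to 474 ± 8.66 CPM, and Cct7 rose 1.12-fold, from 465 ± 17.4 to 519.9 ± 15.9 CPM. In contrast, of 38 genes of endoplasmic reticulum folding 1 rose (Ero1l) and 4 fell, with a median of -0.04, and 1 rose and 2 fell without the 3 deviating libraries (3 rose without 0 µM replicate 4). Sdf2l1, a cofactor of the lumenal HSP70, fell 1.51-fold, with 30.2 to 31.4 CPM at 0 µM against 19.4 to 21.2 CPM at 6 µM, and Selenos, a selenoprotein of the degradation machinery, fell 1.40-fold, from 50.4 ± 2.68 to 35.9 ± 2.10 CPM. Manf, a secreted stress protein, fell 1.18-fold, with an adjusted p of 0.144 by edgeR without the 3 deviating libraries. Hspa5, the lumenal HSP70 that marks the unfolded protein response, was at 645 ± 33.0 CPM and at 693 ± 16.9 CPM and was not called (adjusted p = 0.106, edgeR). It was called as higher without 0 µM replicate 4 (adjusted p = 0.0350, edgeR) and by DESeq2 (0.0436).

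Protective and early response genes rose in part. Of 41 NRF2 target genes 9 rose and 2 fell, with a median of 0.11, and 7 rose and none fell without the 3 deviating libraries. Sqstm1, the autophagy receptor p62, rose 1.21-fold, from 427 ± 10.4 to 518 ± 18.5 CPM, and Abcc1, an export pump for glutathione conjugates, rose 1.15-fold, from 288 ± 11.99 to 330.0 ± 6.23 CPM. The 2 that fell were Gstm1 and Gstm2, which were not called when any 1 of 7 of the 8 libraries was left out (all but 0 µM replicate 1). Of 30 genes of iron, heme and metals 5 rose and none fell, among them Tfrc, the transferrin receptor (from 65.0 ± 4.56 to 92.2 ± 6.31 CPM), Cpox of heme synthesis (from 128 ± 9.06 to 165 ± 7.88 CPM) and Mt1, metallothionein (from 342 ± 34.9 to 432 ± 32.5 CPM). The 41 immediate early genes held 14 that rose and none that fell, with a median of 0.17, and 10 rose without the 3 deviating libraries. Beside Klf10 these include Btg1, an antiproliferative gene (from 138 ± 3.55 to 171 ± 5.59 CPM), and Ier3 (from 155 ± 19.3 to 209 ± 13.4 CPM). Of 15 Krüppel-like and Sp factors 5 rose, Klf4, Klf5, Klf6, Klf10 and Klf11, and 3 did without the 3 deviating libraries. Klf11 rose 1.84-fold, from 16.9 ± 1.75 to 31.2 ± 1.11 CPM. By the transcription factor families of the deposited table, 9 of 43 bZIP genes rose (20.9%), and 4 of 50 bHLH genes rose and 7 fell.

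Many muscle genes fell. Of 40 tested sarcomere genes 11 fell and none rose by edgeR's test, with a median of -0.51. Without the 3 deviating libraries 8 fell. The summed myoblast markers given above overlapped between the doses, but of the 11 tested 4 fell, Myod1 among them, and 1 rose, Ncam1, with a median of -0.26 (3 and 0 without the 3 deviating libraries). Their part in the muscle calls was not tested. Of the 40, 28 had a mean below 10 CPM, the range in which the median of all protein-coding genes was -0.11. Ttn, the giant spring protein titin, was at 50.8, 39.1, 38.9 and 47.2 CPM at 0 µM, 33.5 to 43.1 CPM at 2 µM and 26.4, 30.9, 22.2 and 32.9 CPM at 6 µM. The libraries spread widely, but the highest at 6 µM lay below the lowest at 0 µM (log2 fold change -0.64, SE 0.107, adjusted p = 0.000489, edgeR). Myh1, an adult fast myosin, fell 1.67-fold, from 22.0 ± 1.95 to 13.2 ± 1.83 CPM. Acta1, the skeletal actin, fell 1.54-fold, with 20.3 to 26.9 CPM at 0 µM against 11.6 to 16.5 CPM at 6 µM, with 6 µM replicate 1 well below the other 3 libraries. Actc1, the actin of heart and early skeletal muscle, fell 2.49-fold, from 4.28 ± 0.611 to 1.71 ± 0.615 CPM.

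Of 33 myogenic regulators 10 fell and 2 rose, with a median of -0.19. Without the 3 deviating libraries 6 fell and none rose, and the 2 risers (Mef2d and Ncam1) were both lost without 0 µM replicates 1 or 2 or 6 µM replicates 1, 3 or 4, and 1 of them without 6 µM replicate 2. Myod1 fell 1.30-fold, from 30.3 ± 2.57 to 23.2 ± 1.52 CPM, Myog, or myogenin, fell 1.76-fold, from 7.15 ± 1.249 to 4.06 ± 0.236 CPM, and Mef2c, their partner, fell 1.30-fold, from 55.8 ± 3.93 to 42.7 ± 2.82 CPM. Id3, which restrains MyoD, also fell, 1.249-fold, from 94.7 ± 9.75 to 75.9 ± 2.03 CPM. Of 45 genes of excitation and calcium handling 13 fell and 3 rose, with a median of -0.27, and 9 fell and 1 rose without the 3 deviating libraries. The 3 risers became 1 without 0 µM replicates 2 or 3 or 6 µM replicates 1 or 3. Dmpk, the kinase mutated in myotonic dystrophy, was at 36.3, 44.3, 41.9 and 48.5 CPM at 0 µM, 27.5 to 33.9 CPM at 2 µM and 30.5, 27.7, 30.4 and 31.6 CPM at 6 µM. Chrna1, a subunit of the acetylcholine receptor, fell 1.24-fold, from 56.6 ± 4.78 to 45.7 ± 3.45 CPM, and Kcnj2, an inward rectifier potassium channel, fell 1.29-fold, from 19.5 ± 1.51 to 15.1 ± 0.734 CPM.

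The smooth muscle type of contractile genes split. Of 39 tested, 9 fell and 3 rose, with a median of -0.09, and 5 fell and 1 rose without the 3 deviating libraries. The 3 risers, Tagln2, Smtn and Flna, became 1 without 0 µM replicate 3 or 6 µM replicates 1, 3 or 4. Next to Acta2, Sorbs2, an adaptor of the actin cytoskeleton, fell 1.36-fold, with 130.2 to 143 CPM at 0 µM against 94.2 to 103 CPM at 6 µM, and Myl9, a regulatory myosin light chain, fell 1.70-fold, from 8.45 ± 0.223 to 4.96 ± 0.517 CPM, while at 2 µM it was at 8.92 CPM. Tagln2, transgelin 2, rose 1.17-fold, from 389.5 ± 17.7 to 457 ± 15.5 CPM.

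Muscle promoters are known for CArG boxes, bound by serum response factor, and for E-boxes, bound by MyoD and myogenin. A CArG box, searched on both strands, was in 6 of 32 smooth muscle genes with a RefSeq promoter (18.8%), in 4 of 31 sarcomere genes (12.9%) and in 1.66% of all 10667 genes. The E-box CAGCTG, which reads the same on both strands, was in 14 of the 31 sarcomere genes (45.2%), in 12 of 30 excitation and calcium genes (40%), in 4 of 21 myogenic regulators (19%) and in 18.2% of all genes. Among called members alone it was in 4 of 10 sarcomere genes (40%), 5 of 10 excitation and calcium genes (50%) and none of 8 myogenic regulators. The CArG box was in 2 of 10 called smooth muscle genes (20%) and 2 of 10 called sarcomere genes (20%). Called genes with a match are shown with it in capitals: the CArG boxes of Actc1 (chr2:114052826-114053125 on the minus strand) and Myl9 (chr2:156775214-156775513 on the plus strand) and the E-box pair of Chrna1 (chr2:73580289-73580588 on the minus strand).
Actc1: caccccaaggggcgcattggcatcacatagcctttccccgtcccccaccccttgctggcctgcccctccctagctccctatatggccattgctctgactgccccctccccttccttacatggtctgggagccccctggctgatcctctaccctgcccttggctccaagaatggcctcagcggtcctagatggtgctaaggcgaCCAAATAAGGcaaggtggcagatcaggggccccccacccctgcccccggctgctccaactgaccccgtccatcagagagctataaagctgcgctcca
Myl9: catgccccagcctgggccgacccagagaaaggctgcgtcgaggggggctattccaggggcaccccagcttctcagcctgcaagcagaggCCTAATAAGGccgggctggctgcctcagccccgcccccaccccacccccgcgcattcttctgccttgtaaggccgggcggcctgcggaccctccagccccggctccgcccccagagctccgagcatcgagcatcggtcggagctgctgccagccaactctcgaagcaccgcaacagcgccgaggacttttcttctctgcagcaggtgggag
Chrna1: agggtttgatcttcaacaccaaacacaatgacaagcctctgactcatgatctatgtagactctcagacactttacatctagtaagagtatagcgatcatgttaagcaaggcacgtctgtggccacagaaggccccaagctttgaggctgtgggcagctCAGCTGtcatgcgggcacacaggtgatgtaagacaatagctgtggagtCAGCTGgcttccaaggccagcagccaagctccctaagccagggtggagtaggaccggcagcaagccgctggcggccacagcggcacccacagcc

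**Figure D5:**
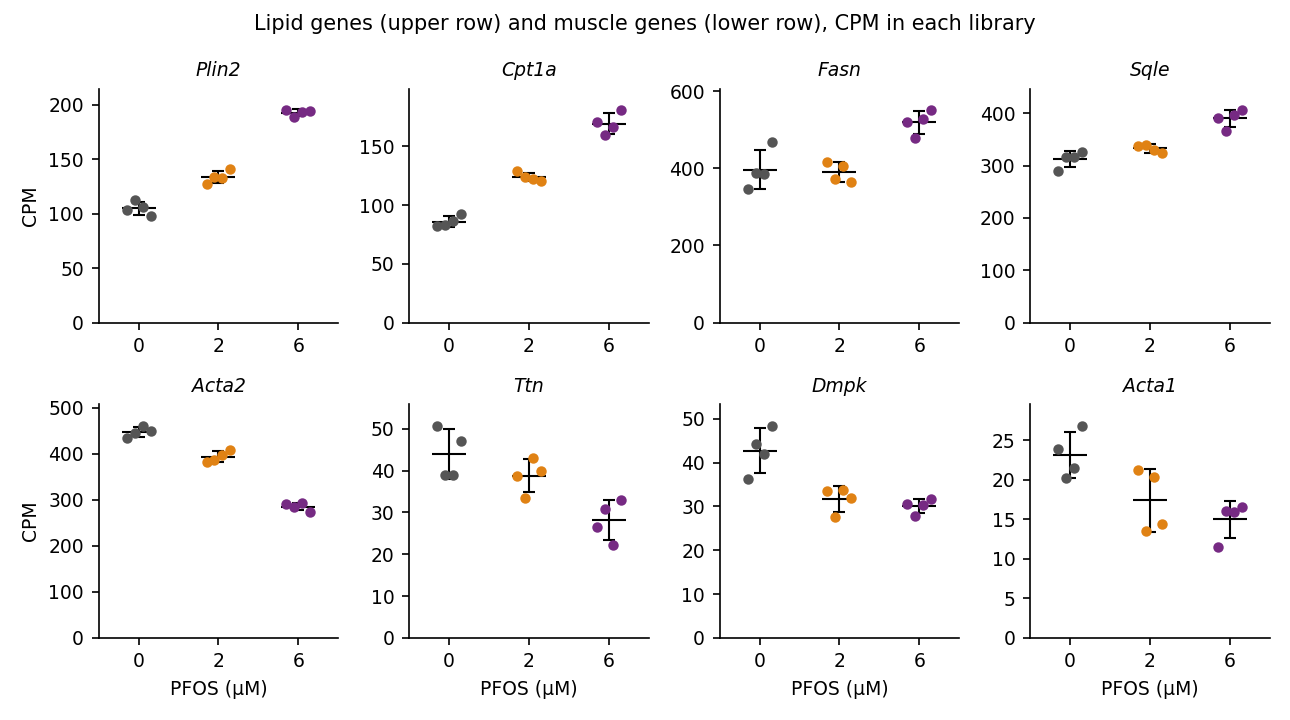
CPM of 4 lipid genes (Plin2, Cpt1a, Fasn and Sqle, upper row) and 4 muscle genes (Acta2, Ttn, Dmpk and Acta1, lower row) in each library at 0, 2 and 6 µM PFOS. Points are libraries (4 a dose), the dash is the mean and the bar the SD. In each gene the 0 and 6 µM libraries do not overlap, and at 2 µM the Fasn libraries lie among those without PFOS.

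Among matrix genes, several fibrillar and interstitial components fell, and a few basement membrane components rose while others fell. Of 34 collagen genes 6 fell and 1 rose, with a median of -0.14, and 6 fell and none rose without the 3 deviating libraries. The summed fibroblast markers were lower in every 6 µM library than in every 0 µM library. Most of that sum is Col1a1, Col1a2 and Col3a1 themselves. Of the 9 markers tested 3 fell and 1, Pdpn (from 143.5 to 159.7 CPM), rose, with a median of -0.22. Without the 3 deviating libraries 3 fell and none rose. The 1 collagen riser was Col4a2 of the basement membrane. There were 0 collagen risers without 0 µM replicates 1, 2 or 3 or 6 µM replicates 3 or 4, and 2 without 0 µM replicate 4. Of 10 laminin genes 2 rose and 1 fell: Lama5 rose 1.29-fold, with 272 to 340.0 CPM at 0 µM against 365 to 391 CPM at 6 µM, and Lamb1 rose 1.18-fold, from 249 ± 10.1 to 294 ± 6.24 CPM, while the fall of Lamb2 was lost without 0 µM replicates 3 or 4, without any 6 µM library and without the 3 deviating libraries. In the wider list of 52 genes of fibrils and their assembly 10 rose and 9 fell, 8 and 5 without the 3 deviating libraries, and the 9 became 4 or 5 without 0 µM replicates 3 or 4 or any 6 µM library. Of 25 proteoglycan genes 6 fell and 1 rose, and 3 fell and 1 rose without the 3 deviating libraries (2 rose without 0 µM replicates 2 or 4). The members differ within a family: Sdc2, a syndecan, fell 1.15-fold, from 400.1 ± 12.5 to 347 ± 8.59 CPM, and its paralog Sdc4 rose 1.15-fold, from 181 ± 10.3 to 208 ± 6.53 CPM. Of 32 ADAM and ADAMTS protease genes 5 fell and none rose (2 at an unadjusted p under 0.05, and 1 by DESeq2), among them Adamts5, an aggrecan-cleaving protease (1.37-fold, from 170.5 ± 10.8 to 125 ± 2.55 CPM). The 5 became 3 without 0 µM replicates 3 or 4 or 6 µM replicate 3, and 2 without the 3 deviating libraries.

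Growth factor genes moved in both directions. Of 16 genes of the insulin-like growth factor system 4 fell, Igf1, Igfbp2, Igfbp3 and Igfbp5, and 4 also fell without the 3 deviating libraries. The 1 riser, Igfbp4, became 0 risers without 0 µM replicates 1 or 4 or 6 µM replicates 2, 3 or 4, and without the 3 deviating libraries. Of 44 TGF-beta and BMP genes 4 rose and 4 fell, in the full set and without the 3 deviating libraries. The risers include Ltbp1, which holds latent TGF-beta in the matrix (1.16-fold, from 404 ± 17.3 to 469 ± 7.30 CPM). The fallers are the ligand genes Tgfb2, Tgfb3 and Bmp4 and the BMP target Id3.

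Several large classes had few calls, while DNA replication genes, given last here, were called higher more often than all genes. None of 77 mitochondrial ribosomal protein genes was called by edgeR, with a median of 0.00. At an unadjusted p under 0.05, 6 were higher and 4 lower, and DESeq2 and limma-voom called none. Of 85 nuclear genes of oxidative phosphorylation 1 rose and 3 fell, with a median of -0.06, and none rose and 1 fell without the 3 deviating libraries. The riser was lost without 0 µM replicate 1 or 6 µM replicate 4, and the 3 fallers became 1 without 0 µM replicate 2 or 6 µM replicate 3. Uqcr11, a small subunit of complex III, fell 1.23-fold, from 80.1 ± 6.32 to 65.1 ± 3.48 CPM. None of the 13 mitochondrially encoded subunits was called by edgeR, DESeq2 or limma-voom (2 higher and 1 lower at an unadjusted p under 0.05), and mt-Co1, the gene with the highest mean over the 12 libraries, was at 9173 to 11247 CPM and at 9952 to 11798 CPM. None of 19 subunits of the vacuolar ATPase was called by the 3 tools either (none higher and 2 lower at an unadjusted p under 0.05). Of 49 cell cycle genes 2 rose (Ccnd1 and Ccnd2), 7 by DESeq2 and 4 by limma-voom, and none did without the 3 deviating libraries. None fell, although 6 were lower at an unadjusted p under 0.05. Of 53 DNA replication genes 6 rose (11.3%, against 4.58% of all genes) and 1 fell, and 2 rose and none fell without the 3 deviating libraries. DESeq2 called 10 higher and 1 lower, and at an unadjusted p under 0.05 in edgeR 19 were higher and 1 lower. The faller, Tk1, became 0 without 0 µM replicates 2 or 3 or 6 µM replicates 3 or 4. The risers include Rrm2 (1.19-fold, from 298 ± 2.75 to 356 ± 21.1 CPM) and Cad (1.17-fold, from 173 ± 10.98 to 202 ± 4.75 CPM), which supply deoxynucleotides and pyrimidines. A class with no call is not shown to be unmoved, since only changes past the threshold are counted.

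The largest fold changes, most of them of scarce genes, are given in brief. They are limited to genes whose libraries at 0 and 6 µM do not overlap and whose log2 CPM averages 1 or more. Called genes below that level had larger folds, Cyp1a1 among them (5.45-fold, at 0.292 and 1.59 CPM on average). Upward, the named genes with the largest folds above it were Angptl4, a secreted inhibitor of lipoprotein lipase (21.5-fold, from 9.42 ± 1.02 to 202 ± 9.94 CPM), Dnah6, an axonemal dynein (6.00-fold), Cyp26b1, which degrades retinoic acid (3.81-fold), Acsbg1, an acyl-CoA synthetase (2.71-fold), and Pdk4 (2.70-fold). Downward, they were Aspn, or asporin (2.67-fold), Actc1, Ces1d, a carboxylesterase (2.49-fold), Izumo4 (2.30-fold) and Clca2 (2.30-fold). Without the 3 deviating libraries the adjusted p was 0.0731 for Ces1d and 0.0612 for Izumo4 by edgeR.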

How the data were processed

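RNA of C2C12 cells was sequenced as messenger RNA in 12 libraries, 4 each at 0, 2 and 6 µM PFOS. The authors deposited whole-number read counts per gene for each library, with no normalization. HISAT2 and the build GRCm39 are named in the submitters' processing notes, while the coordinates in the deposited table equal those of a GRCm38 annotation for 53585 of 54495 shared genes (98.3%). The sources used here give neither the counting tool nor its strand setting. Coordinates are printed as deposited.

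Counts were fitted in R 4.3.3 with edgeR 4.0.16 (TMM scaling, filterByExpr, quasi-likelihood test, 1 mean per dose, 9 residual degrees of freedom, biological coefficient of variation 10.8%), which left out 38494 genes with low counts. The contrast was 6 against 0 µM, with Benjamini-Hochberg adjustment over the 16038 genes tested. Standard errors are the log2 fold change divided by the root of F. The fit was tested on simulated data. There it called 33 of 66 genes changed 1.25-fold, 35 of 67 changed 1.5-fold and 46 of 65 changed 2-fold. Of its 116 calls 2 were false. Libraries of the same dose differed by more than counting noise, so none was a copy.

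Members, gene lists and tests were chosen with earlier results of these data known. Named genes are, among called genes with a proper symbol, the 15 a direction with the largest CPM difference, the 8 with the smallest p among the 100 most abundant, the 10 a direction with the smallest adjusted p, up to 3 a list, and the 5 a direction with the largest fold among those whose libraries at 0 and 6 µM do not overlap and whose log2 CPM averages 1 or more. Which list genes are given, mostly those whose call held in every alternative, was settled after the values were seen, as were the promoter motifs and 19 genes outside the rule: Hmgcs1, Asns, Chac1, Sdf2l1, Hspa5, Myod1, Myog, Mef2c, Sorbs2, Col1a1, Gm26917, mt-Rnr2, Gapdh, Ccnl2, Pnisr, Arglu1, Mat2a, Ogt and Cyp1a1. Some genes that the rule picks are not reported here. Alternatives were upper-quartile scaling, the 8 libraries alone, other count filters, a replicate block, each library left out, the length trend removed, limma-voom (limma 3.58.1) and DESeq2 1.42.0. Leaving out the 3 libraries farthest from their dose's mean was chosen from earlier results of these data.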

Additional observations from a re-analysis of the deposited data

Results flagged for a closer look

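For 16 of 278 groups of 4 libraries looked at (each reported gene at 0 and at 6 µM), 1 library lay far from the other 3 by Dixon's criterion at 95%. Chance alone flags about 1 group in 20.

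The library stood above the others in these groups. H19 was at 632 CPM in 6 µM replicate 4, against 607 to 611 CPM in the other libraries of that dose. Sorbs2 was at 143 CPM in 0 µM replicate 1, against 130.2 to 131 CPM in the other libraries of that dose. Zim1 was at 33.2 CPM in 0 µM replicate 1, against 29.8 to 30.1 CPM in the other libraries of that dose. Slc16a1 was at 284 CPM in 6 µM replicate 3, against 275 to 276 CPM in the other libraries of that dose. Axl was at 382 CPM in 6 µM replicate 4, against 363 to 365 CPM in the other libraries of that dose. Mat2a was at 124 CPM in 6 µM replicate 2, against 104 to 105 CPM in the other libraries of that dose. Tiparp was at 102 CPM in 0 µM replicate 1, against 87.9 to 90.3 CPM in the other libraries of that dose. Neat1 was at 451 CPM in 6 µM replicate 2, against 331 to 336 CPM in the other libraries of that dose. Hspg2 was at 1561 CPM in 0 µM replicate 4, against 1153 to 1222 CPM in the other libraries of that dose, and so within the 6 µM range.

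It stood below the others in the remaining groups. H19 was at 848 CPM in 0 µM replicate 1, against 931 to 941 CPM in the other libraries of that dose. Igfbp5 was at 891 CPM in 6 µM replicate 4, against 927 to 930.1 CPM in the other libraries of that dose. Gm26917 was at 1399 CPM in 6 µM replicate 2, against 1522 to 1546 CPM in the other libraries of that dose. Ier3 was at 189 CPM in 6 µM replicate 2, against 215 to 217 CPM in the other libraries of that dose. Gars was at 649 CPM in 0 µM replicate 4, against 699.9 to 709 CPM in the other libraries of that dose. Ces1d was at 2.71 CPM in 0 µM replicate 2, against 3.55 to 3.61 CPM in the other libraries of that dose. Acta1 was at 11.6 CPM in 6 µM replicate 1, against 15.996 to 16.539 CPM in the other libraries of that dose.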

How the results depend on the processing

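The direction of every gene called with all libraries held in those of the 17 alternatives that tested it. Of the 135 called genes that are reported, 123 kept their call in all that tested them. List genes were given mostly where their call held, so this share does not describe all called genes. Of all 1322 called genes, 630 were also called without the 3 deviating libraries, and 870 to 1092 with single libraries left out. Without the 3 deviating libraries 408 genes rose and 302 fell, at 100 CPM or more 222 rose and 57 fell, and below 10 CPM 26 rose and 70 fell. With single libraries left out, 93 to 161 genes fell below 10 CPM (99 without 0 µM replicate 2 and 93 without 0 µM replicate 3, against 151 with all), and DESeq2 called 255. The count of all genes that rose ranged from 513 to 789 with single libraries left out, and of those that fell from 398 to 592. With the replicate block 648 genes rose and 506 fell, and 1121 of these 1154 were also called without it. Libraries with the same number showed no shared deviation over all tested genes (correlations from -0.0154 to 0.0118). Scarce, noisy genes weigh as much as abundant ones in these correlations, so they cannot settle whether the numbers pair the libraries. The Gapdh log2 fold change, not called, turned from above 0 to -0.0454 without the 3 deviating libraries (adjusted p = 0.960 by edgeR). Upper-quartile scaling turned the balance of all calls (598 rose and 662 fell). Fewer samples in a fit leave less power, and apart from that the cause of these shifts was not tested. Genes at a few counts a library can be called only for large changes.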

Other observations

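Noncoding transcripts fell more often than they rose. Among 503 lincRNA genes 28 fell (5.57%) and 4 rose (0.795%) by edgeR's test, against 3.66% and 4.58% of all tested genes. Their median log2 fold change was -0.29, and 12 fell and 1 rose without the 3 deviating libraries. Among 460 genes of the TEC class, transcripts whose existence awaits experiment, 17 fell (3.70%, near the share of all genes) and none rose. Their median was -0.46, and 8 fell without those libraries. Of 467 antisense genes 9 fell (1.93%) and none rose, and none of 68 bidirectional promoter noncoding genes was called. The lincRNA and TEC genes are scarce, with median means of 0.544 and 0.397 CPM. All tested genes below 1 CPM had a median of -0.25. Of 27 tested genes in a list of abundant noncoding RNAs and snoRNA hosts 5 fell and 1, Gm26917, rose, with a median of -0.12, and 4 fell and 1 rose without the 3 deviating libraries. The fallers became 3 without 6 µM replicate 1. Neat1, the scaffold of paraspeckles, went from 517 ± 69.7 to 363 ± 58.8 CPM, and Malat1, of nuclear speckles, from 592 ± 41.0 to 472 ± 75.4 CPM. The Malat1 call ended without 0 µM replicates 1 or 2 or 6 µM replicates 1 or 3 (adjusted p = 0.0709, 0.111, 0.107 and 0.140 by edgeR), without the 3 deviating libraries (0.109) and by DESeq2 (0.118). Of 18 imprinted genes 4 fell, H19, Peg3, Zim1 and Impact, and 1 rose (1.145-fold). Without the 3 deviating libraries 3 fell and none rose, and the riser was also lost without 6 µM replicate 2. Zim1 was at 29.8 to 33.2 CPM at 0 µM and at 12.5 to 19.5 CPM at 6 µM, with every 6 µM library below every 0 µM library.

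Several coding genes linked to splicing and nuclear retention fell with them, chosen here after their values were seen. Srsf5, a splicing factor, went from 209, 202, 193 and 182 CPM to 139.6, 166, 146 and 149 CPM (adjusted p = 0.000212, edgeR). Pnisr fell 1.41-fold, from 124 ± 7.50 to 87.5 ± 13.3 CPM, Ccnl2, a cyclin of splicing speckles, fell 1.28-fold, from 105 ± 6.57 to 82.2 ± 3.82 CPM, and Ogt, the O-GlcNAc transferase, fell from 330.4 ± 18.7 to 264 ± 22.2 CPM. In Srsf5, Pnisr, Ogt and Neat1 the highest 6 µM library was replicate 2. In contrast the list of 78 spliceosome genes held 4 that rose and 3 that fell, with a median of 0.03. The 4 became 2 without 0 µM replicate 3 or 6 µM replicates 1, 2 or 3 and 1 without 6 µM replicate 4, and the 3 became 1 without 6 µM replicate 1 and 6 without 6 µM replicate 2.

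Gm26917, annotated as a lincRNA, lies next to the ribosomal RNA gene CT010467.1 on chromosome 17, and whether its reads are ribosomal was not tested. It rose from 859, 1166, 997 and 1160.4 CPM to 1544, 1399, 1522 and 1546 CPM, and mt-Rnr2, the large mitochondrial ribosomal RNA, rose from 276, 278, 231 and 226 CPM to 337, 390.3, 348 and 351 CPM. The 13 mitochondrial messenger RNAs were not called. Gapdh was at 81.0, 97.0, 41.6 and 93.0 CPM and 51.9, 102, 111 and 97.3 CPM, a wide spread within each dose, and was called only with no count filter (adjusted p = 0.00479, edgeR). Its near-identical copies in the genome can take its reads, so its level is uncertain.

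Some response genes rose. Of 31 inflammatory mediators 4 rose (12.9%, against 4.58% of all genes) and 1 fell, with a median of 0.04, and 3 rose and none fell without the 3 deviating libraries. The folds of the 4 risers ran from 1.18 to 4.10. The faller, Il33, became 0 without 0 µM replicate 3 or 6 µM replicates 1 or 2 and 2 without 0 µM replicate 2 or 6 µM replicate 3. Nos2, the inducible nitric oxide synthase, rose 1.51-fold, from 16.3 ± 2.81 to 24.7 ± 2.29 CPM, and Ptgs2, or cyclooxygenase 2, rose from 78.8 ± 9.45 to 99.0 ± 5.33 CPM with a mean of 117 CPM at 2 µM. H2-K1, a class I histocompatibility gene, rose from 209 ± 10.2 to 247 ± 10.1 CPM, while the interferon-inducible GTPase gene Irgm1 fell from 18.5 ± 0.894 to 13.6 ± 1.02 CPM. Of 25 genes of retinoic acid handling and xenobiotic metabolism 6 rose (24.0%) and 1 fell, with a median of 0.03, and 5 rose and none fell without the 3 deviating libraries (2 fell without 0 µM replicate 1). Cyp1a1, the classic target of the aryl hydrocarbon receptor, was scarce, at 0.643, 0.0866, 0.375 and 0.0652 CPM at 0 µM and 0.692, 2.23, 1.57 and 1.85 CPM at 6 µM (log2 fold change 2.45, SE 0.558, adjusted p = 0.00759, edgeR). Its log2 fold change was 3.13 without 0 µM replicate 1, its highest library at that dose. Cyp1b1 and Tiparp, further known targets of that receptor, rose 1.36-fold and 1.24-fold, from 56.4 to 76.9 CPM and from 92.2 to 114 CPM. Zmat3 and Aen, known targets of p53, rose 1.24-fold and 1.22-fold. Of 29 p53 targets 3 rose (5 without 6 µM replicate 2) by edgeR.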
